A study of Mus musculus with 2 samples.

Results

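Aldehydes, alcohols, ketones and esters from food, drugs and the liver's own metabolism are handled by a few large enzyme families. The genes described here are those whose name in the array files starts with Adh, Aldh, Akr, Aox, Ces or Fmo and goes on with a digit. There were 59 such genes, covered by 73 probes, among 31894 gene names on the array. The rule used names only and no measured value. Alcohol dehydrogenases (Adh) oxidise alcohols such as ethanol and retinol to aldehydes, and aldehyde dehydrogenases (Aldh) and aldehyde oxidases (Aox) carry aldehydes on to acids. Aldo-keto reductases (Akr) work in the other direction, reducing aldehydes, ketones and steroids, while carboxylesterases (Ces) split esters, amides and glycerides and flavin-containing monooxygenases (Fmo) oxidise nitrogen and sulphur in amines, drugs and thioethers. Most of the families are abundant in hepatocytes, and many of their genes lie in tandem clusters of close homologues.

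Gene expression was measured in liver of C57BL/6 mice with 1-colour Agilent arrays. There was 1 array for wild type and 1 for the genotype with Alb-Cre and a CAG-floxed neo-Snail transgene. Alb-Cre places the recombinase Cre under control of the albumin gene's promoter, active mainly in hepatocytes. CAG is a strong ubiquitous promoter, and floxed neo is a cassette that Cre removes. The comparison asks how enforced expression of Snail, a zinc-finger repressor, in hepatocytes alters the liver. The labels used here do not give age, sex, diet, time of sampling, pooling of animals or whether the tissue held a tumour. With 1 array a group there are no replicates, no test could be run, and no difference below has a replicate check.

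The share of 43020 spots that cleared background was 50.7% on the wild-type array and 54.0% on its counterpart. Snai1, the gene of the transgene, had 1 probe, whose signal was 23.2 for wild type and 22.3 for Snail, and a log2 difference of -0.44. Whether this probe can detect the transgene's RNA is unknown, so the labels rest unchecked, and the second sample is called the liver labelled Snail. Among 8 hepatocyte markers, all were measured, 3 were past 2-fold lower in the liver labelled Snail, and log2 differences ran from -3.04 (Apoa1) to -0.19 (Apob). Their summed scaled signal was 2670 in wild-type liver against 1585. Of 6 adipocyte markers 5 were not well above background on either array, among them Adipoq and Plin1, and of 5 cholangiocyte markers Krt7, Krt19 and Epcam were not, while Sox9 was 2.92-fold higher and Spp1 had a log2 difference of 0.58. The markers of endothelium, stellate cells and lymphocytes did not move together within a type. Lyve1 of endothelium was 3.98-fold higher, while Stab2, Kdr, Clec4g and Pecam1 lay between -0.23 and 0.27. Among stellate markers Col1a1 was 2.50-fold higher and Lrat 2.01-fold lower, with Dcn at -0.94 and Reln at -0.79. Ms4a1 of lymphocytes was 2.37-fold higher, with Cd3g at 0.60, Cd3e at -0.20 and Cd79a at -0.77. The 4 macrophage markers measured on both arrays lay between -0.03 and 0.15. The neutrophil markers S100a8 and S100a9 were 3.96-fold and 2.96-fold higher in the liver labelled Snail, and Ly6g was at 0.92. The summed scaled signal over these 3 measured markers was 2.12 in wild-type liver against 5.85. Mpo, also of neutrophils, was well above background only in the liver labelled Snail, at least 2.08-fold higher there. The part of any of these in the results below was not tested. In bulk liver, fewer cells of a type and less RNA per cell cannot be told apart.

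The results turn on a few probes and genes, whose sequences are shown first. The probes of Aox1 and Aox3 are printed because these neighbouring genes were both higher in the liver labelled Snail, and the Ces2c probe because it disagreed in size with the other probes of its gene. Each is written 5′ to 3′ and has a reading frame without a stop codon. The capitals mark a stop codon that ends a different frame of the Ces2c probe, which is open up to that codon.
Aox1 probe: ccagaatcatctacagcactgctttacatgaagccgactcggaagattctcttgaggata
Aox3 probe: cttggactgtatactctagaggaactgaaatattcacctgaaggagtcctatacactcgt
Ces2c probe: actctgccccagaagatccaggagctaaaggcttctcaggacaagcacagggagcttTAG
On the build mm9 the Aox1 probe lies on chromosome 1 from 58163025 to 58163084 and the Aox3 probe from 58245203 to 58245262. The Ces2c probe lies on chromosome 8 from 107378105 to 107378164. The exon that each lies in was not analysed here.

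The promoters shown are the 250 bases before the start of genes that differed, or of the close homologue of such a gene, from RefSeq on GRCm38.p6. Capitals mark 3 motifs, searched on both strands: CAGGTG, the E-box form bound by Snail, TATAAA, the TATA box, and CCAAT, the CCAAT box. The windows are Aox1 (chr1:58029719-58029968, forward strand), Aox3 (chr1:58112886-58113135, forward strand), Ces2c (chr8:104846818-104847067, forward strand), Aldh1a1 (chr19:20601718-20601967, forward strand), Aldh1a7 (chr19:20727557-20727806, reverse strand) and Akr1c6 (chr13:4434093-4434342, forward strand).
Aox1 promoter: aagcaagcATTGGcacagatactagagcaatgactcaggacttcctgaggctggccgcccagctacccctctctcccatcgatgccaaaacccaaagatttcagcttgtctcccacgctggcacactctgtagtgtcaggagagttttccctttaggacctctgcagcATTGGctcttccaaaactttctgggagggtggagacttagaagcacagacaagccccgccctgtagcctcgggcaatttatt
Aox3 promoter: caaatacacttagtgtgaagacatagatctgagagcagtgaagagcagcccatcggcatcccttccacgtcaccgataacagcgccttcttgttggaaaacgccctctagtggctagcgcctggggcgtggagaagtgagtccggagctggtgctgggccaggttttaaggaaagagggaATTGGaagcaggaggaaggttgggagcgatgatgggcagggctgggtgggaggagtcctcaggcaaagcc
Ces2c promoter: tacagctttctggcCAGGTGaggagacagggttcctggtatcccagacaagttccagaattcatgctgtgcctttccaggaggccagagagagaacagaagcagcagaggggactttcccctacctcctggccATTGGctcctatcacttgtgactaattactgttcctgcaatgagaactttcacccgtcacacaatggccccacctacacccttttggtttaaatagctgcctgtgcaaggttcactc
Aldh1a1 promoter: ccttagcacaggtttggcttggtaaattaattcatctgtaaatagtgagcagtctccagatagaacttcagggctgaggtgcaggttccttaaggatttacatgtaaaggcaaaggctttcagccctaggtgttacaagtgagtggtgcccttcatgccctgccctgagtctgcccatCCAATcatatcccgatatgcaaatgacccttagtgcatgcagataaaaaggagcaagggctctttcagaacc
Aldh1a7 promoter: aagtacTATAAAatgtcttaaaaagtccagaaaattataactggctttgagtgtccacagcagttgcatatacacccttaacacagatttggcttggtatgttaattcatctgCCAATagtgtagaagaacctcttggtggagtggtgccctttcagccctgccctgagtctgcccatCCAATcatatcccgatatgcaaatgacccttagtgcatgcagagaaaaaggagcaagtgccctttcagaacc
Akr1c6 promoter: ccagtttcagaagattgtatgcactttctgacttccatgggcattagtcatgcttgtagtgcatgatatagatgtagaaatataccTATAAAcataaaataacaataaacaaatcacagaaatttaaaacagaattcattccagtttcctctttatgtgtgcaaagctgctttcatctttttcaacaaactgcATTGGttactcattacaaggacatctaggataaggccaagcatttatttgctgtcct
Ces2c was the only one of these 6 windows with CAGGTG, which lies 236 bases before the gene's start. Aldh1a1 has a second start farther upstream in the table, and the window before that start also holds the motif. Of 48 members with a promoter in the table, 9 had CAGGTG, in 17.3% of their 52 windows, against 17.2% of all 32851 windows of the same length. CCAAT stood in 51.9% of the members' windows and in 33.8% of all windows, and TATAAA in 17.3% and 12.4%. Of other motifs, TGACNNNGC, a core of antioxidant elements, stood in 3 members' windows (5.77%, against 10.2% of all), GCGTG, the core bound by the dioxin receptor, in 8 (15.4% against 28.2%), and TTANGTAA, bound by the clock output factor Dbp, in those of Akr1c18 and Ces1g (3.85% against 2.06%). Each match is a run of letters and no measured binding site.

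Of the 59 genes, 44 were well above background on both arrays, 1 only in the liver labelled Snail (Aox2), 2 only in wild-type liver (Akr1c18 and Aldh1a3) and 12 on neither. Those 12 were Adh6a, Adh7, Akr1c21, Aldh18a1, Aldh1a2, Aldh1l2, Aldh3b2, Aox4, Ces4a, Ces5a, Fmo6 and Fmo9, with no signal above 11.5. A log2 difference is that of signals scaled by each array's 75th percentile, liver labelled Snail minus wild type, and signals quoted beside it are not scaled between arrays. Scaling lowers the log2 ratio of raw signals by 0.38. A gene is called higher or lower below where the arrays differ by 2-fold or more. Among the 44 genes, 6 (13.6%) were called higher in the liver labelled Snail, against 3.96% of all 15467 genes measured on both arrays. Only Akr1c6 (2.27% of the 44) was called lower, against 6.34% of all genes, and in either direction the background was 10.3%. The low share depends on the name rule. With the genes of these families that carry older names, described below, 3 of 52 measured genes were lower (5.77%) and 8 higher (15.4%). The shares of 3.96% and 6.34% over all genes are also the background for the counts of each family and list below. Among the 29 members with signals of at least 1000 on both arrays, 4 were called higher (13.8%) and 1 lower (3.45%), against 57 and 251 (6.62%) of the 3793 genes as bright. The members' median log2 difference was -0.13 and that of all genes -0.03, and 19 of the 44 lay above 0. Bright genes lay lower in general: over the 3793 with signals of at least 1000 the median was -0.12, and 1443 were above 0. The 29 members as bright had a median of -0.25. Once the median of genes of like signal was subtracted, the median was -0.11 for the 44 members and -0.002 for all genes. The higher genes were Aox3, Ces2c, Aox1, Ces1g, Aldh1a7 and Fmo2. The spread of the log2 difference between spots of 1 probe printed several times, which holds array noise and no difference between animals, had a median SD of 0.04 at signals of at least 1000, 0.06 from 100 to 1000 and 0.17 under 100.

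**Figure D1:**
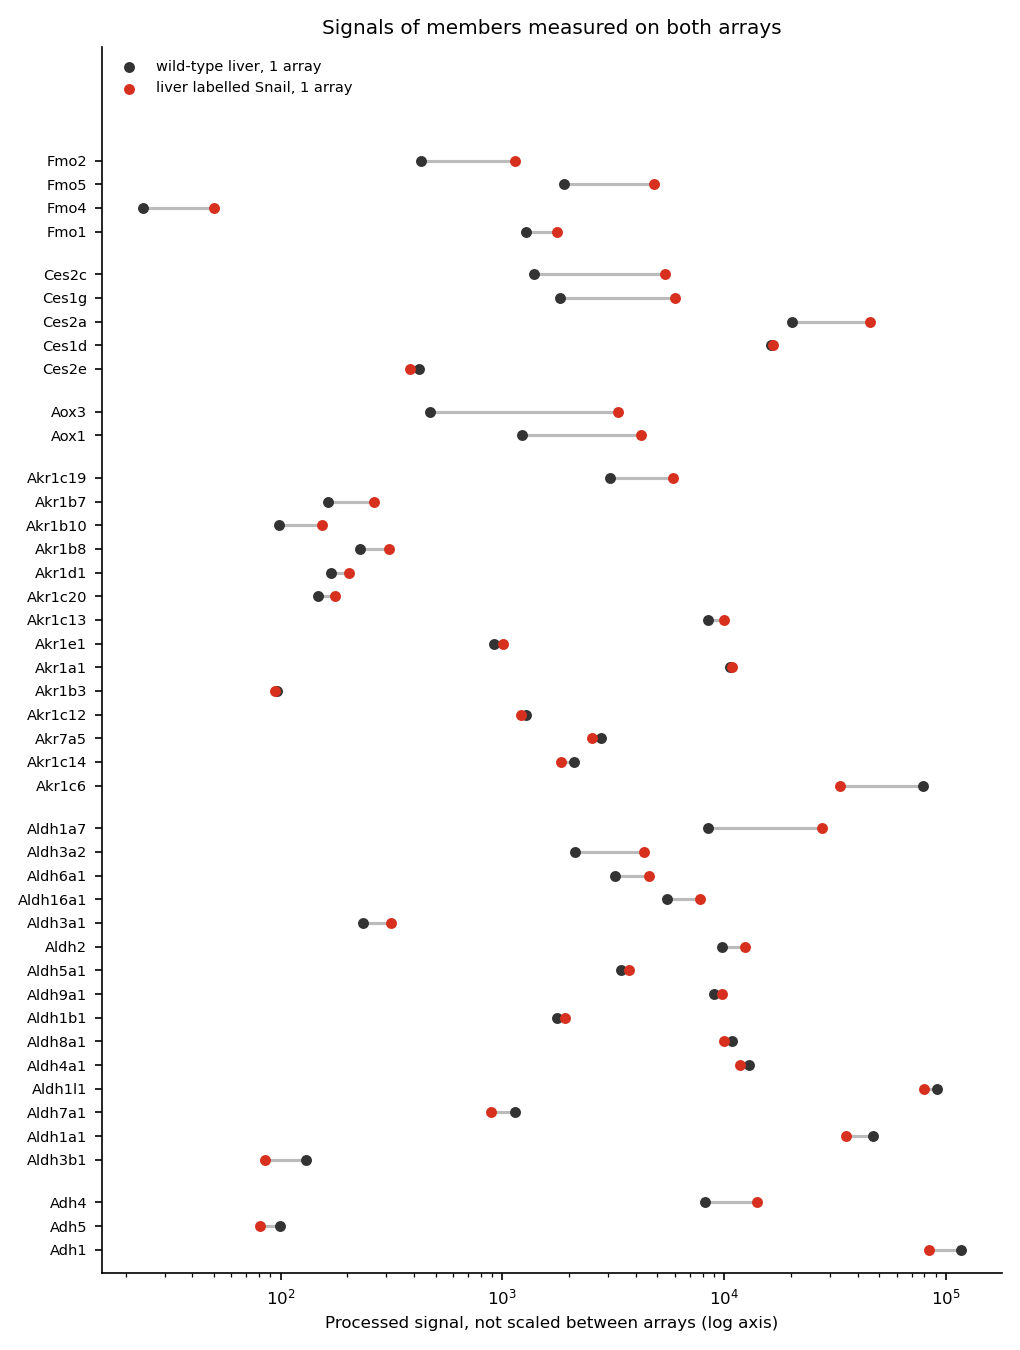
Processed signal (x axis, log scale, not scaled between arrays) of members measured on both arrays, by family; dark points are the wild-type array and red points the array labelled Snail. The longest lines to the right belong to Aox3, Ces2c, Aox1, Ces1g and Aldh1a7, and the longest to the left to Akr1c6.

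**Figure D2:**
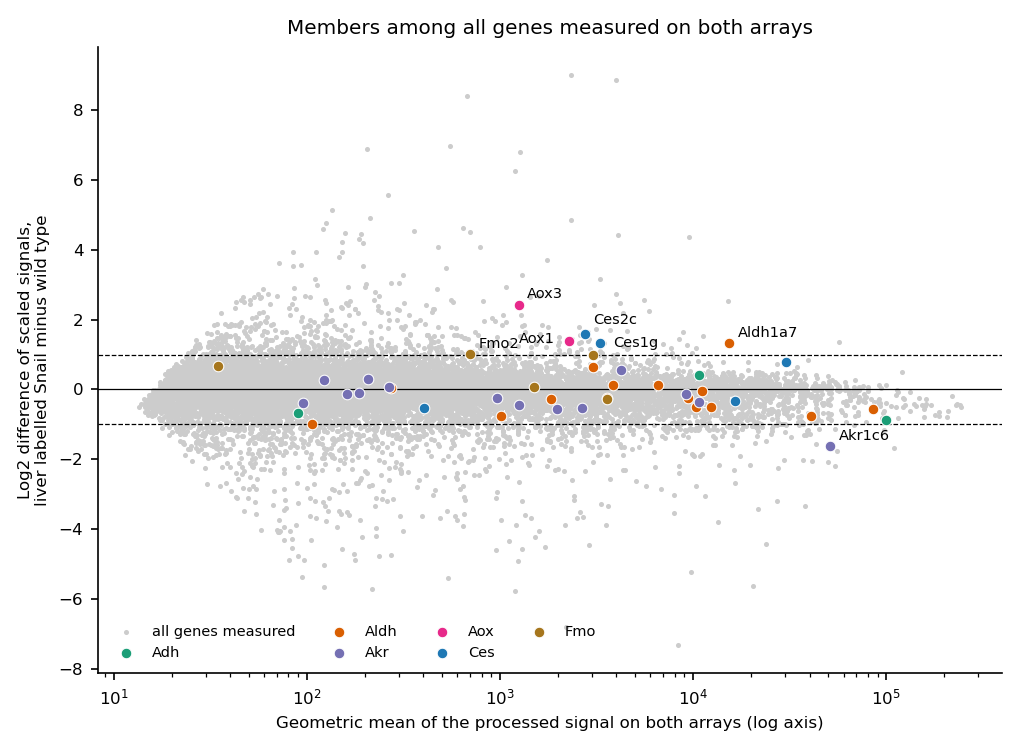
Log2 difference of scaled signals (y axis) against the geometric mean signal (x axis, log scale) for all 15467 genes measured on both arrays (grey) and the 44 members, coloured by family; dashed lines mark 2-fold. The 7 named members lie beyond those lines, and most bright Aldh, Adh and Akr genes lie a little below 0.

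Both measured aldehyde oxidases were higher in the liver labelled Snail. These are large molybdenum and flavin enzymes of the cytosol that oxidise aldehydes and aromatic nitrogen rings, among them many drugs. Aox3, with the probe shown above, went from a signal of 472.3 in wild-type liver to 3308, a log2 difference of 2.43 or 5.39-fold, higher than 99.5% of all genes measured. Aox1 went from 1227 to 4206, a log2 difference of 1.40 or 2.64-fold. The genes lie side by side on chromosome 1, with their probes 82.2 kb apart, and the cluster goes on with Aox4, at signals of 3.01 and 2.85, and Aox2 (Aox3l1 in the files), at 3.88 and 14.6. Aox2 was well above background only in the liver labelled Snail, but so close to the lowest signal counted as such that no fold can be given. The promoters of Aox1 and Aox3 printed above agree at 21 of the last 100 positions before the start, with a longest shared run of 7 bases, and each holds CCAAT and GCGTG. Over 5 other ways of background correction and scaling, Aox3 lay between 2.37 and 2.53 and Aox1 between 1.46 and 1.53.

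Aldehyde oxidases need the molybdenum cofactor and share it with xanthine dehydrogenase and sulphite oxidase. Of 7 measured genes of this group 1 was called lower (14.3%, against 6.34% of all genes) and none higher. Their median log2 difference was -0.17. Mocs1, which makes the first intermediate of the cofactor, had a log2 difference of -1.03 (signals 4046 and 2571). After the median of genes of like signal was subtracted, Mocs1 was at -0.95 and under 2-fold. Mocs2, the next step, was at -0.50, Xdh, the xanthine dehydrogenase, at -0.21, and Mocos, which adds the sulphur that aldehyde oxidases and xanthine dehydrogenase need, at -0.17.

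Both carboxylesterases called higher, Ces2c and Ces1g, lie on chromosome 8, in different clusters. In mouse they are encoded in a Ces1 and a Ces2 to Ces4 cluster, both on chromosome 8, and the liver enzymes act in the endoplasmic reticulum on drugs, pesticides and stored glycerides. The name rule found 7 of them, under old names in the files (Ces1, Ces2, Ces3, Ces5, Ces6, Ces7 and Ces8), of which 5 were measured and 2 were called higher. Ces1g, linked to triglyceride and lipoprotein handling, went from 1823 to 5994, a log2 difference of 1.34 or 2.53-fold. Ces1d, a triacylglycerol hydrolase of the same cluster, had signals of 16208 and 16613 and a log2 difference of -0.34. Ces2a went from 20203 to 45257, a log2 difference of 0.79, which is 1.73-fold and under the 2-fold rule. Ces2e had a log2 difference of -0.52, from probes at -0.84 and -0.20, the second of which was dim at 21.4 and 24.2.

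Ces2c had 3 probes, all higher in the liver labelled Snail. The probe printed above, which ends in a stop codon, went from 8858 to 19488, a log2 difference of 0.76. The other two, which share a run of 26 bases, went from 810.0 to 4246 and from 372.8 to 1923, log2 differences of 2.01 and 1.99. The probes thus differ by 1.25 on the log2 scale, and the gene's mean of 1.59, or 3.01-fold, falls to 0.76 and under 2-fold when the brightest probe alone is used. No probe of a member shared a run of 20 bases with a probe of another member. Binding of a probe to the transcript of a close homologue was not tested.

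Another 11 genes belong to these families by their present RefSeq symbol but carry older names in the files, so the rule does not count them as members. They were picked out by symbol after the values had been seen. All but Akr1cl, which was below background, are carboxylesterases, and 8 of the 11 were measured. Ces2b (BC015286 in the files) went from 536.8 to 3089, a log2 difference of 2.15 or 4.43-fold, and Ces2g (2210023G05Rik) from 670.8 to 2708, a log2 difference of 1.64 or 3.11-fold. In the other direction Ces3a (Es31) went from 36274 to 10612, a log2 difference of -2.15 or 4.44-fold lower, and Ces3b (Gm4738) from 2623 to 1037, at -1.72 or 3.28-fold lower. Ces1b, Ces1c, Ces1e and Ces1f had log2 differences between -0.94 and 0.40, and Ces1a and Ces2f were below background.

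Set out along chromosome 8, the values change within short distances. The Ces2 to Ces4 cluster spans 408.4 kb between its outermost probes (mm9, from 107265289 to 107673659) and holds 9 genes, 7 of them measured. Ces2a, Ces2b, Ces2c and Ces2g had log2 differences from 0.79 to 2.15, with Ces2e at -0.52 among them, and the next measured genes, Ces3a and Ces3b, were at -2.15 and -1.72. In the Ces1 cluster, from 95544137 to 96038191, 6 of 8 genes were measured and Ces1g alone was past 2-fold.

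**Figure D3:**
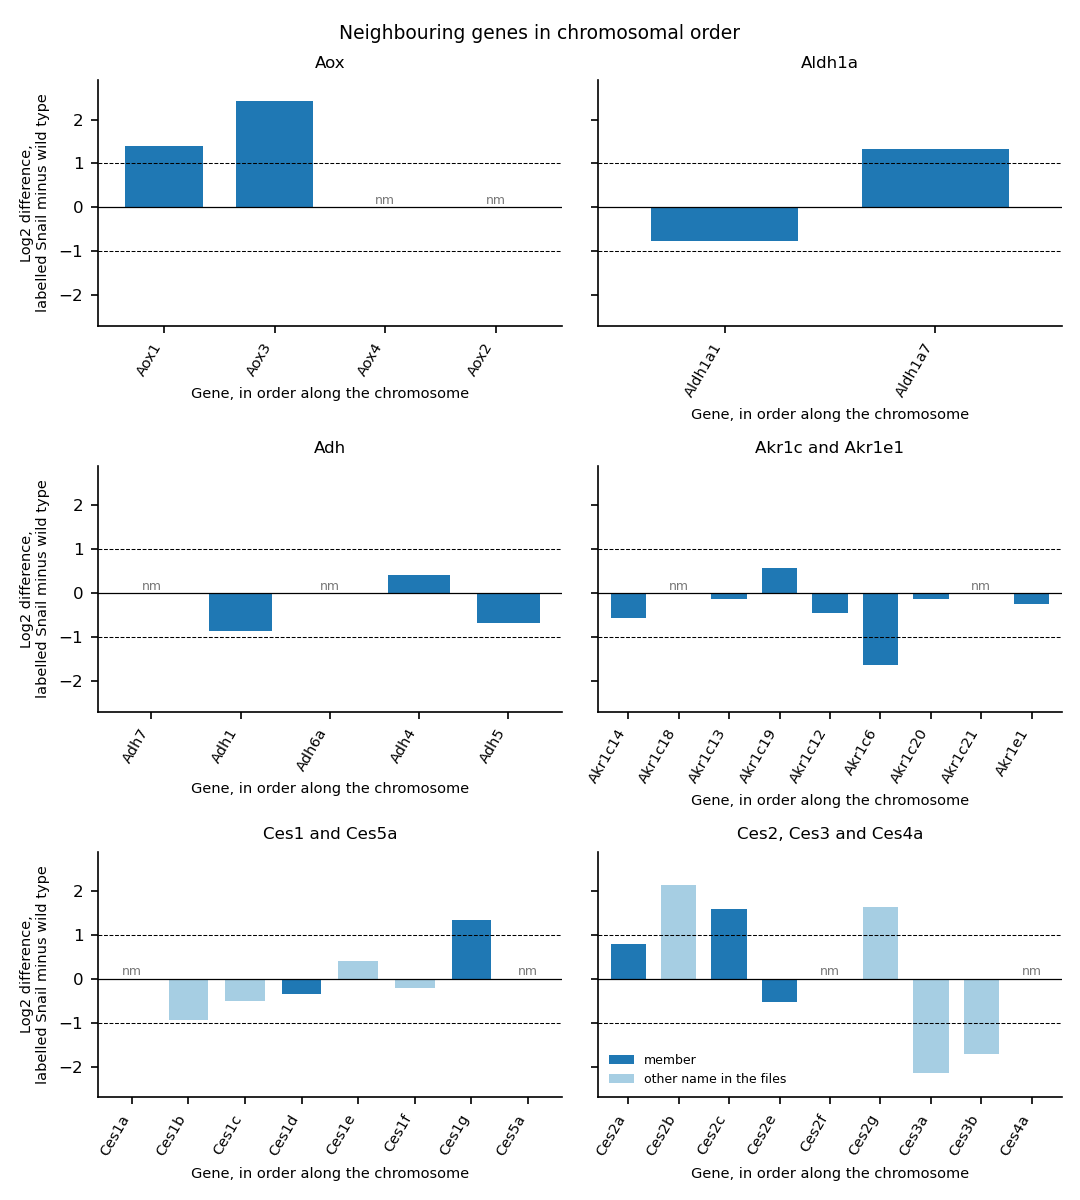
Log2 difference of scaled signals (y axis, liver labelled Snail minus wild type) of neighbouring genes in order along the chromosome, for 6 clusters; dark bars are members, light bars are genes with another name in the files, nm means not measured on both arrays, and dashed lines mark 2-fold. Ces2 genes stand mostly above 0 and Ces3 genes below it, both Aox genes that were measured stand above, and Aldh1a1 and Aldh1a7 stand on opposite sides.

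Other hydrolases of esters and lipids lay on both sides of 0. Of 25 measured genes of a list of other esterases, lipases and hydrolases, 4 were called lower (16%, against 6.34% of all genes) and none higher. In this list 12 genes were above 0 and the median was -0.19. The highest value was that of Acot2, an acyl-CoA thioesterase, at 0.95 from dim signals of 17.7 and 44.5. Pnpla2, the main triglyceride lipase of lipid droplets, had a log2 difference of -2.39, and Pon1, the paraoxonase secreted on HDL, of -2.30 (signals 31684 and 8358). Pnpla7, a lysophospholipase, was at -1.58 and Nceh1, a cholesteryl ester hydrolase, at -1.46.

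Among aldehyde dehydrogenases 15 of 20 genes were measured, 1 was called higher and 0 lower, and 5 were above 0 around a median of -0.26. This median was -0.15 once that of genes of like signal was subtracted. Aldh1a7 was the higher gene. It is a close homologue of Aldh1a1, and its signal went from 8502 to 27619, a log2 difference of 1.32 or 2.50-fold. Aldh1a1, the main liver enzyme that turns retinaldehyde into retinoic acid, went from 46822 to 35606, a log2 difference of -0.77 or 1.71-fold lower. The probes of this pair lie 49.8 kb apart on chromosome 19 (mm9, from 20717764 to 20717823 and from 20767553 to 20767612). Their proximal promoters, printed above, agree at 94 of the last 100 positions before the start, with a longest shared run of 65 bases, and each holds CCAAT 72 bases before the start. Aldh1a2 was below background and Aldh1a3 was well above it only in wild-type liver, at 16.7 against 11.6, at least 1.68-fold higher there.

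The other aldehyde dehydrogenases differed by less than 2-fold. Aldh3b1, at 130.3 and 85.2, came closest, with a log2 difference of -0.99 or 1.99-fold lower. Aldh3a2, the fatty aldehyde dehydrogenase, went from 2127 to 4343, a log2 difference of 0.65. Aldh2, the mitochondrial enzyme that clears acetaldehyde, had signals of 9794 and 12450 and a log2 difference of -0.03. Aldh1l1, which oxidises formyltetrahydrofolate and was among the brightest members, was at -0.56. Enzymes of amino acid breakdown lay on both sides of 0: Aldh7a1 of the lysine pathway at -0.75, Aldh4a1 of proline at -0.51, Aldh8a1 of kynurenine at -0.49, Aldh5a1 of GABA at -0.25 and Aldh6a1 of valine at 0.13. Aldh9a1 of carnitine synthesis was at -0.26, Aldh1b1, a mitochondrial relative of Aldh2, at -0.26 and Aldh16a1 at 0.12.

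Aldh3a1 was measured by 1 of its 2 probes, at 234.5 and 316.1, with a log2 difference of 0.05. The second probe shares a run of 53 bases with the first and was at 2.95 and 2.86, below background on both arrays. Without a filter on dim probes, where both are averaged after the dim one is raised to each array's lowest signal well above background, the Aldh3a1 log2 difference was -0.21. For Aldh3b2 the 2 probes share 42 bases and both were below background.

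Of 5 alcohol dehydrogenase genes, which form 1 cluster on chromosome 3, Adh1, Adh4 and Adh5 were measured and none was 2-fold apart. Adh1, the class I enzyme that oxidises ethanol and retinol, went from 117090 to 83727, a log2 difference of -0.86 or 1.82-fold lower. Adh4, the class II enzyme, went from 8179 to 14120, a log2 difference of 0.41. Adh5, which oxidises formaldehyde bound to glutathione, was dim at 99.9 and 81.1 and had a log2 difference of -0.68. Under quantile normalization Adh1 was at -0.40.

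Genes of the reactions next to alcohol dehydrogenase lay mostly below 0. Of 8 measured genes of alcohol and peroxide oxidation 3 were called lower (37.5%, against 6.34% of all genes) and 0 higher. The median was -0.23, and 6 of the 8 genes were below 0. After the median of genes of like signal was subtracted, the list's median was -0.06, and 3 genes were still past 2-fold lower. Cyp2e1, the ethanol-inducible cytochrome P450, went from 54586 to 29431, a log2 difference of -1.27. Acss2, which turns acetate into acetyl-CoA in the cytosol, was at -1.56, Hao1, the glycolate oxidase of peroxisomes, at -1.94 and Acss1, the mitochondrial counterpart of Acss2, at 0.97 from dim signals of 19.9 and 50.6.

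Retinoid genes beside Adh1 and Aldh1a1 lay more often below 0 than above it. Of 21 measured, 2 were called higher (9.52%, against 3.96% of all genes) and 6 lower (28.6%, against 6.34%). The median was -0.27, and 14 of the 21 genes were below 0. The retinol dehydrogenase gene Dhrs9 had the largest difference, 3.63, from signals of 17.8 and 285.5, and the retinoic acid receptor gene Rarg was at 1.55. Bco1, which splits beta-carotene into retinaldehyde, was at -1.88.

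Aldo-keto reductases were mostly close to 0 or a little below it. Of 16 genes 14 were measured, 1 was called lower and 0 higher, and 4 were above 0 around a median of -0.19. This median was -0.16 once that of genes of like signal was subtracted. Akr1c6, a hydroxysteroid dehydrogenase abundant in mouse liver, went from 79198 to 33160, a log2 difference of -1.63 or 3.10-fold lower. Its probe lies on chromosome 13 from 4456428 to 4456487 (mm9), inside a cluster of 9 members that spans 502.9 kb. The other 6 genes of that cluster measured on both arrays were between -0.57 (Akr1c14, another hydroxysteroid dehydrogenase) and 0.57 (Akr1c19). Akr1c18, which inactivates progesterone, was well above background only in wild-type liver, at 27.9 against 13.8, which is 2.63-fold lower by its observed signals.

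Outside that cluster no aldo-keto reductase was 2-fold apart. The Akr1b genes Akr1b7, Akr1b8 and Akr1b10 were at 0.31, 0.07 and 0.27, and Akr1b3, the aldose reductase that makes sorbitol from glucose, at -0.40. Akr1a1, the broad aldehyde reductase that also serves ascorbate synthesis, had signals of 10668 and 10833 and a log2 difference of -0.35. Akr7a5, a reductase of aflatoxin aldehydes, was at -0.52 and Akr1d1, the reductase of bile acid intermediates, at -0.11.

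Carbonyl reduction is shared with short-chain dehydrogenases. Log2 differences in a list of these and other reductases ran from -1.91 (Hsd3b7) to 4.55 (Cbr3), with a median of -0.48. Of its 27 measured genes 2 were called higher (7.41%, against 3.96% of all genes) and 3 lower (11.1%, against 6.34%). Cbr3, a carbonyl reductase, went from 64.6 to 1963, a log2 difference of 4.55 or 23.4-fold. The other higher gene was Cbr1, named after its value was seen, at 1.04. Hsd3b7, of bile acid synthesis, was at -1.91 and Dhrs1 at -1.86, and Hsd3b5 was at least 9.37-fold lower. The quinone reductase Nqo1, in a list of 9 measured electron transfer genes of which 1 was called higher and 1 lower, went from 163.5 to 817.2, a log2 difference of 1.94. In the same list Cyb5r3, the reductase of the cytochrome encoded by Cyb5a, was at -1.09, Cyb5a at -0.46, and Por, which passes electrons to cytochromes P450, at -0.26.

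Flavin-containing monooxygenases stood mostly above 0. Of 7 genes 5 were measured, 1 was called higher and 0 lower, and 4 were above 0. Fmo2 went from 431.8 to 1137, a log2 difference of 1.02 or 2.03-fold, just inside the 2-fold rule. Fmo5, which also inserts oxygen into ketones, was just outside it at 0.98, or 1.97-fold, with its 3 probes at 0.86, 0.99 and 1.09. Fmo1 was at 0.09 with probes at 0.08 and 0.09, and Fmo4 at 0.68 from dim signals of 23.9 and 49.9.

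Regulators of these families were mostly under 2-fold apart. Of 15 measured receptors and factors 1 was called higher and 0 lower, and the median was -0.55. Nr1i2, the pregnane X receptor that induces many drug-metabolizing genes, went from 1187 to 3115, a log2 difference of 1.02. Ahr, the dioxin receptor, was at -0.87, Ppara, the receptor for fatty acids, at -0.83 and Cebpa, a hepatocyte factor, at -0.78.

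**Figure D4:**
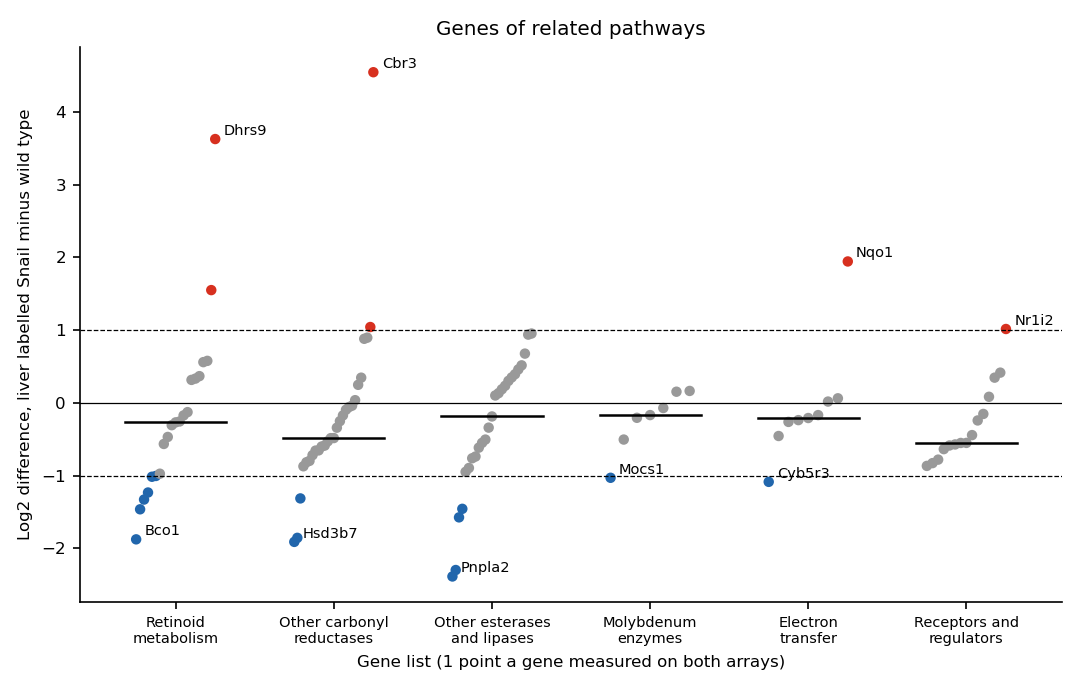
Log2 difference of scaled signals (y axis) of each gene measured on both arrays in 6 lists of related genes (x axis); red points were called higher and blue points lower in the liver labelled Snail, black bars are medians and dashed lines mark 2-fold. All 6 medians lie between -0.55 and -0.17, with Cbr3, Dhrs9 and Nqo1 far above them.

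Several of these families are known to differ between male and female mice and over the day, so genes that mark sex and clock are given beside them. Xist was well above background on both arrays, at 236.7 and 347.8, and the Y-linked genes Kdm5d, Ddx3y, Uty and Eif2s3y on neither. Of 10 genes known to be higher in males, Cyp4a12a, Cyp4a12b and Elovl3 were well above background only in the liver labelled Snail, and Slco1a1 and Hsd3b5 only in wild-type liver. Cyp4a12a went from 4.08 to 8051, at least 449-fold higher, and Cyp4a12b from 6.60 to 12034, at least 671-fold higher. Elovl3 was at least 8.32-fold higher, while Slco1a1 and Hsd3b5 were at least 12.3-fold and 9.37-fold lower. Of the 5 measured on both arrays 3 were called lower (60%, against 6.34% of all genes), and only Gstp1 was above 0, at 0.57. Of 7 measured genes known to be higher in females 5 were called lower (71.4%), or 3 after the median of genes of like signal is subtracted. Only Sult2a1 of these 7 was above 0, at 0.81. Cyp3a44, also of this list, was well above background only in wild-type liver, at 1779 against 5.58, at least 179-fold lower with Snail. Among 11 measured clock genes 5 were called lower (45.5%, against 6.34% of all genes) and 0 higher. Dbp had a log2 difference of -5.39, Nr1d1 of -3.47, Nr1d2 of -1.84, Tef of -1.25 and Cry2 of -1.24. The list was split, with 5 of the 11 above 0: Arntl at 0.82, Npas2 at 0.77, Nfil3 at 0.69, Clock at 0.41 and Per1 at 0.28. Npas2 was dim, at 15.8 and 34.9, and Hlf was at -0.16. Per2 and Per3 were well above background only in wild-type liver. The part of these in the members' values was not tested, and with 1 animal or pool a group, genotype, individual and hour of sampling cannot be told apart.

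The 7 differences past 2-fold were recomputed under 9 other ways of processing. Aox1, Aox3, Ces1g, Aldh1a7 and Akr1c6 were past 2-fold in the same direction under the 5 that rescale or recorrect signals. The other 4 change only the choice of probes, dim signals or names and could not alter these genes, each of which has 1 bright probe. In contrast Ces2c was under 2-fold with its brightest probe alone and Fmo2 with the normexp background step, at 0.99. Ces2a reached 2-fold in the authors' value table and after quantile normalization.

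**Figure D5:**
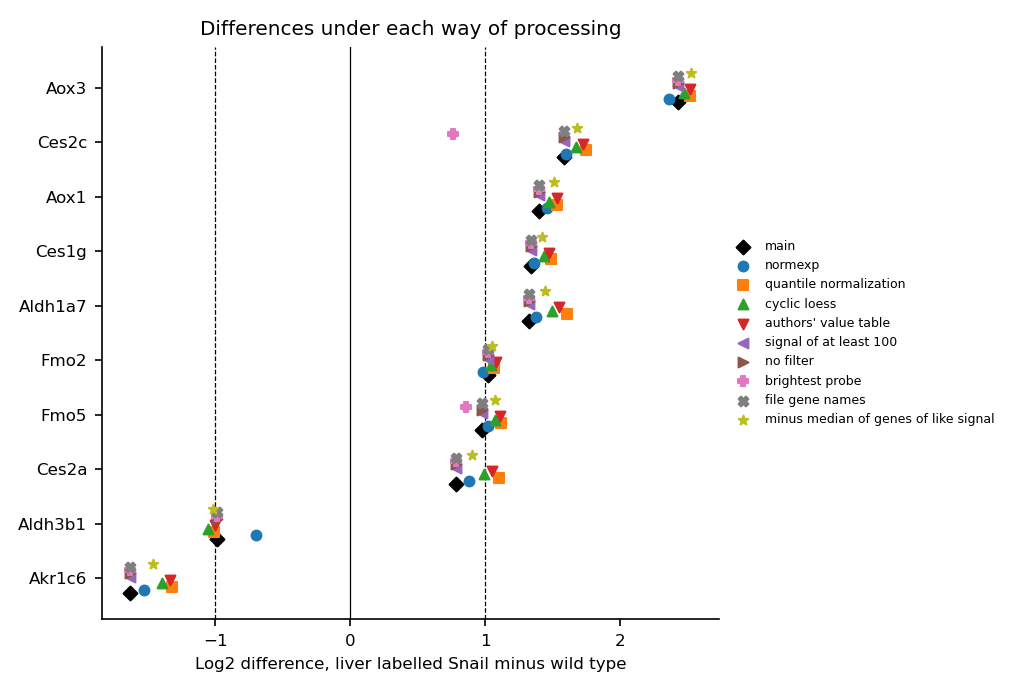
Log2 difference (x axis, liver labelled Snail minus wild type) of 10 members under the main processing (black) and 9 alternatives (coloured symbols); dashed lines mark 2-fold. The 10 are the 7 past 2-fold and Fmo5, Ces2a and Aldh3b1, which pass it under some alternatives.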

How the data were processed

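Total RNA of liver was labelled with Cy3 and hybridized to 1-colour Agilent arrays, 1 per genotype. The authors deposited raw scanner tables, made with Feature Extraction 9.5.1.1 (Agilent; per the submitters' processing notes), whose intensity values are background-subtracted and detrended within each array, per the file headers. The authors also deposited a table of intensity values for the same 39429 probes, with scale and centring not given in the sources used here. Both its columns have a median of 17.3, and on the log2 scale each correlates at 1.00 with its own array across probes.

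Each processed signal was divided by the 75th percentile of its array, taken over 43020 non-control spots (232.7 for wild type and 302.1 for Snail), and put on the log2 scale. Control spots and 287 outlier spots were dropped, and 0 spots were saturated. Values of repeated spots were averaged per probe, and genes were given the mean of those probes that the scanner software called well above background on each array. A gene well above background on 1 array has a bound against the higher of the dim array's lowest such signal (13.8 and 12.9) and the probe's own signal. Where the latter is higher it is the observed ratio. Probes were renamed by accession through RefSeq genes of GRCm38.p6, which matched 26051 of 39422 probes and 69 of the 73 probes of the families. Folds are by a fixed rule of 2-fold, the number of arrays limits the precision, and no test was run. Limma 3.58.1 in R 4.3.3 gave the alternatives of background and normalization, and the per-gene step was tested on simulated data. Every gene of the families could be named, and of each other list the 4 genes with the largest differences or bounds, with all sex and clock genes and the cell type markers. The members and lists were chosen with earlier results of these data known. A few genes are not reported by name here.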

Additional observations from a re-analysis of the deposited data

How the results depend on the processing

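The count of members called higher was 6 of 44, and under the 8 alternatives planned and the 2 chosen after seeing the data this count was between 5 and 8. The count called lower, 1, was 2 under quantile normalization and cyclic loess (Akr1c6 and Aldh3b1), 2 when the median of the genes nearest in signal was subtracted (the same pair), 2 without a filter on dim probes (Akr1c6 and Akr1c18), and 3 when the renamed carboxylesterases were added (Akr1c6, Ces3a and Ces3b). The members' median, -0.13, was -0.01 under quantile normalization and -0.34 without a filter. Without the filter each dim signal is raised to its array's lowest signal well above background, so a gene dim on both arrays takes a constant of -0.47, which is no measurement and lowers that median. No member past 2-fold changed direction, and by a limit of 1.5-fold of the measured genes the value of Ces2c with its brightest probe alone, 0.76, was the only member value that moved. Members under 2-fold near 0 did change sign: Akr1c13 and Aldh2 were above 0 under quantile normalization, at 0.13 and 0.22, and Aldh3a1 was below it without a filter. Signals under 100 limit Fmo4, Adh5, Aldh3b1 and Akr1c18 most, and differences between animals have no estimate. No paired analysis was possible because each group has 1 array.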
